A study of Mus musculus with 4 samples.

Results

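Gonadal white adipose tissue (gWAT) of aged mice held Pdgfra-positive stromal cells that carried many transcripts of Il6, the cytokine interleukin-6, and Ptx3, the secreted pattern recognition molecule pentraxin 3. These cells, called Il6/Ptx3 progenitors here, were taken from 4 single-cell libraries by transcript counts (unique molecular identifiers, UMIs). A barcode was kept when it had over 1000 and under 7000 genes and a mitochondrial share under 8%. A kept barcode was a progenitor when it had at least 2 Pdgfra UMIs, at most 1 Ptprc UMI, at most 2 Upk3b plus Msln UMIs, at most 4 Cxcl13 UMIs, under 10 Mzb1 UMIs and at most 2 Pi16 plus Dpp4 UMIs. It was an Il6/Ptx3 progenitor when Il6 plus Ptx3 came to at least 5 UMIs. By these measured values 14982 of 33567 barcodes were kept, 2634 were progenitors and 1161 were Il6/Ptx3 progenitors, which were 7.75% of the kept barcodes and 44.1% of the progenitors. The 749 progenitors with no Il6 and no Ptx3 UMI served as the reference, and 724 lay between. Since Il6 and Ptx3 chose the cells, their levels and the contrast with the reference are a description and carry no test.

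The study asked which signals bring on senescence of adipose progenitors in aging fat. It compared cells with high and low p16 expression (p16high and p16low). All mice were 18-month-old males of the genotype p16-CreERT2/R26-LSL-tdTomato and all received tamoxifen, so tdTomato (Tom) marked cells in which the p16 promoter had driven Cre while tamoxifen was present, and it stayed on afterwards in those cells and their progeny. The stromal vascular fraction (SVF) was stained for CD31 and CD45 and sorted by both markers into a library each of CD45- Tom+ and CD45- Tom- cells and of CD45+ Tom+ and CD45+ Tom- cells, 1 library a sort, and the number of mice behind a library was not given in the sources used here. With 1 library a group no difference between groups could be tested; intervals are exact 95% intervals and cover counting error only. Values for the 4 libraries are always given in this order, Tom+ before Tom- and CD45- before CD45+.

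The deposited libraries held 64083756 to 139397501 UMIs and 1981 to 4818 kept barcodes. The Tom label matched the reporter, with tdTomato at 542, 8.27, 616 and 10.9 UMIs per 1000000 UMIs of the summed cells (CPM) in the Il6/Ptx3 progenitors. The CD45 label did not separate leukocytes, because cells with at least 10 Ptprc UMIs (Ptprc encodes CD45) numbered 787 of 4145, 478 of 4038, 405 of 1981 and 761 of 4818 kept barcodes. The CD45 names are therefore used as library labels only. Both Tom- libraries shared 4394 barcodes, of which 12 passed the filter in both, and 1 was an Il6/Ptx3 progenitor in both. A barcode of 546 of the 1161 Il6/Ptx3 progenitors was also found in another library, where its median depth was between 561 and 798 UMIs. Of the 749 reference cells, 12 and 10 in the first and second Tom+ library had at least 3 Adam28 UMIs, against none of the 1161. Those 22 cells had Col1a1 at 5.54 and 15.6 CPM, against 5950 and 6817 CPM in the rest of the reference, and were rich in Gpx5, Defb20, Lcn8 and Adam7. Their Lum was at 3.70 and 6.23 CPM against 2266 and 2460 CPM. The epithelial gene Epcam was at 480 and 483 CPM in them against 6.88 and 9.84 CPM. The rule counted these cells as progenitors by Pdgfra, but they did not have the matrix transcripts of progenitors. Their removal changes only the Tom+ values of a contrast with the reference. The main counts, most list medians and the leading genes are given with and without them. Any other Tom+ difference from the reference includes them. For a gene that they lacked, that difference is larger with them: for Tnfaip6 it was 1.92 and 2.63 on the log2 scale with them and 1.53 and 2.27 without.

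Adipose progenitors are fibroblast-like cells around the vessels of fat that lay down matrix and can become adipocytes, and part of them secrete cytokines and chemokines that draw in leukocytes. NF-kB is the transcription factor family at the centre of that secretory response: signals from IL-1, TNF or Toll-like receptors release it into the nucleus, where it switches on cytokines, chemokines and its own inhibitors. IL-6 acts through a shared receptor chain and STAT3, while pentraxin 3 binds microbes and complement and joins the hyaluronan matrix through the protein encoded by Tnfaip6.

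Il6 lies on chromosome 5 (30013114-30019981, + strand, mm10) and Ptx3 on chromosome 3 (66219910-66225805, + strand). Their promoters are shown because both genes define the cells, and those of Cxcl1, Has1 and Tnfaip3 because these genes stood among those higher in the cells. The stretches are from RefSeq (GRCm38.p6), on the strand of the gene, and end at the RefSeq transcription start or a few bases past it. Matches were sought from 250 bases before to 50 bases after that start. Capitals mark matches on either strand to the NF-kB site, AP-1 (TGANTCA), CRE (TGACGTCA), C/EBP (TTGCNNAA) or the TATA box letters TATAAA, and where a site matches on both strands it is marked once.
Il6, chr5:30012864-30013113, + strand: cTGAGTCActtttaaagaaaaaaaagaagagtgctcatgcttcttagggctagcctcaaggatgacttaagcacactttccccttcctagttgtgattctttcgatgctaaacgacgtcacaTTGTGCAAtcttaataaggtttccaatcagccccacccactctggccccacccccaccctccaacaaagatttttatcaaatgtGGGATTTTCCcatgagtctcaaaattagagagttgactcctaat
Ptx3, chr3:66219637-66219896, + strand: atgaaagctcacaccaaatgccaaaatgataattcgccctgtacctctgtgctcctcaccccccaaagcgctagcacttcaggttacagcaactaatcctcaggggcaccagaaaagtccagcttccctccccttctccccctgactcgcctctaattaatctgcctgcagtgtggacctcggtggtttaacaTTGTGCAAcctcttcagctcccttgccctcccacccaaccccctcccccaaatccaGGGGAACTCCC
Cxcl1, chr5:90890995-90891244, + strand: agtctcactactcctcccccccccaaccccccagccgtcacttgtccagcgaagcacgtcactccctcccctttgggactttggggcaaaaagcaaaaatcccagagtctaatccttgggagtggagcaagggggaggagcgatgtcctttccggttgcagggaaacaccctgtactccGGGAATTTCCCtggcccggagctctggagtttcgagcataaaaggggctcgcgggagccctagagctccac
Tnfaip3, chr10:19015411-19015660, - strand: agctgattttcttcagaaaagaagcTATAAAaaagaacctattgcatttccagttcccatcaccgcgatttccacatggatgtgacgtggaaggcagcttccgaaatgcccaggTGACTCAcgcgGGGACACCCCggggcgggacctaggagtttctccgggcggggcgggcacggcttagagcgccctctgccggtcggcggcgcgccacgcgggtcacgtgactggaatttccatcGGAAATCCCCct
Has1, chr17:17855185-17855438, - strand: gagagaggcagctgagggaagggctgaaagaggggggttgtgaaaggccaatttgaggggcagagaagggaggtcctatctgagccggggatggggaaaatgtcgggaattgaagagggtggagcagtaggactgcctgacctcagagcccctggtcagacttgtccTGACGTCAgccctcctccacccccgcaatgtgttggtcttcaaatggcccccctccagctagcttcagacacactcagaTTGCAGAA
The Il6 window held an NF-kB match that began 44 bases before the RefSeq start, a C/EBP match at 128 and an AP-1 match at 249. In the Ptx3 window an NF-kB match spanned the RefSeq start and a C/EBP match began 57 bases before it. Cxcl1 had an NF-kB match at 71, Tnfaip3 had NF-kB matches at 125 and 12, and Has1 had a CRE match at 83 and no NF-kB match in its window. Among all 27025 genes with a window, 5.14% held an NF-kB match, 8.97% AP-1, 2.03% CRE, 12.2% C/EBP and 15.7% TATA. Of the 20 genes most higher in the Il6/Ptx3 progenitors, 13 had a window, and 2 of these held NF-kB, 4 AP-1, 2 C/EBP, 1 CRE and 1 TATA. The 2 with NF-kB were Cxcl1 and Tnfaip3, so the printed windows do not stand for the 13. Another RefSeq window of Tnfaip3, not printed, held no match. Of the 20 most lower, 12 had a window, and 1 held NF-kB, 2 AP-1 and 1 CRE. A match says only that these letters stood in the window.

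The cells carried the markers of adipose progenitors in all 4 libraries. The summed level of 11 progenitor markers other than Pdgfra, such as the matrix genes Dcn, Lum and Col1a1, was 37245, 40112, 40308 and 40788 CPM, with no marker at 0, against 35395, 43376, 38988 and 43673 CPM in the reference without the Adam28 cells. Markers of T and NK cells summed to 2.28 to 7.14 CPM, of neutrophils to 1.50 to 11.2 CPM and of mature adipocytes to 4.51 to 20.5 CPM. Other marker lists were not near 0. The 6 blood endothelial markers summed to 1275, 945, 2821 and 1021 CPM against 961, 1293, 600.1 and 1576 CPM in that reference, of which Fabp4, a gene that adipocytes also use, made up 1196, 914, 2717 and 994 CPM, and the defining marker Pecam1 was at 19.5 CPM or more in the Tom+ libraries and at 1.35 and 1.64 CPM in the Tom- libraries. The 5 lymphatic endothelial markers summed to 560, 4.99, 7.51 and 5.35 CPM, the 6 B cell markers to 13628, 519, 4420 and 483 CPM and 5 plasma cell markers to 1958, 399, 1109 and 373 CPM, each high in 1 or both Tom+ libraries. Of the B cell sums, the immunoglobulin gene Ighm alone made up 13597, 513, 4408 and 477 CPM. Of the lymphatic sum in the library labelled CD45- Tom+, Ccl21a made up 251 CPM, 98.6% of it from 1 cell. By their progenitor markers the cells matched the label of an adipose progenitor. The Tom+ libraries also carried transcripts from these other marker lists, and the part of those transcripts in the results was not tested.

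The 1161 cells were spread unevenly over the sorts, with 71, 514, 24 and 552 cells. Among progenitors they were 33.2% (71 of 214, interval 26.9 to 39.9), 44.8% (514 of 1148, 41.9 to 47.7), 22.4% (24 of 107, 14.9 to 31.5) and 47.4% (552 of 1165, 44.5 to 50.3). Both Tom+ libraries lay below both Tom- libraries. Progenitors themselves were 5.16, 28.4, 5.40 and 24.2% of kept barcodes, so that Il6/Ptx3 progenitors were 1.71, 12.7, 1.21 and 11.5% of kept barcodes. The sort sets those shares of kept barcodes. The shares among progenitors moved with depth. After every cell was thinned to 5000 UMIs, and 439, 412, 232 and 502 shallower kept barcodes were left out, the shares with at least 5 remaining UMIs were 22.4% (16.8 to 28.9), 22.7% (20.2 to 25.3), 12.5% (6.63 to 20.8) and 24.1% (21.7 to 26.8), and the pair labelled CD45- no longer differed beyond counting error. When barcodes found in more than 1 library were left out, the unthinned shares were 34.8, 34.8, 22.8 and 40.8%, with no gap left in the pair labelled CD45-. Without the Adam28 cells in the denominator the unthinned shares were 35.3, 44.8, 24.7 and 47.4%.

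**Figure D1:**
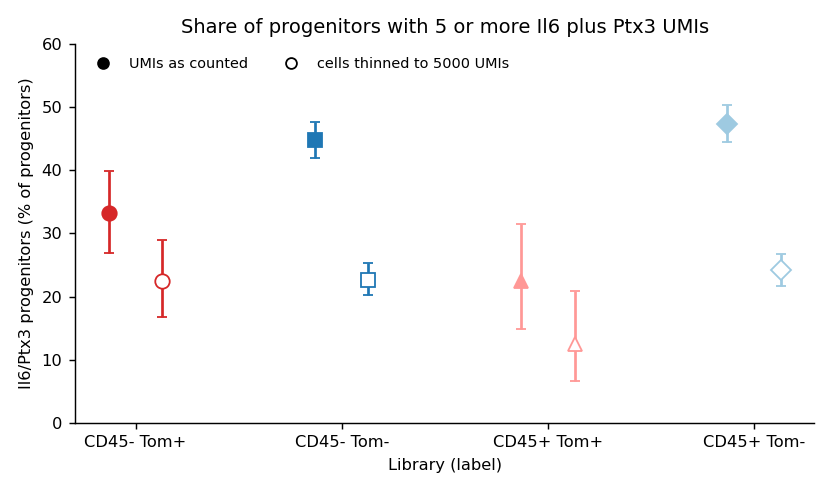
Share of progenitors with at least 5 Il6 plus Ptx3 UMIs in each library (y axis, percent), as counted (filled) and after thinning each cell to 5000 UMIs (open); bars are exact 95% binomial intervals of counting error, with 1 library a group. The 33.2 and 22.4% of the Tom+ libraries lay below the 44.8 and 47.4% of the Tom- libraries before thinning, and after it the shares were 22.4, 22.7, 12.5 and 24.1%.

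Il6 and Ptx3 were mostly found together but not in fixed proportion. A cell had a median of 13 Il6 UMIs, between 0 and 203, and of 5 Ptx3 UMIs, between 0 and 599. Both transcripts were present in 789 cells (68.0%), Il6 without Ptx3 in 267 and Ptx3 without Il6 in 105, while 397 (34.2%) had at least 5 UMIs of each. The summed level was 988, 1080, 842 and 1047 CPM for Il6 and 897, 607, 355 and 564 CPM for Ptx3. In the library labelled CD45- Tom+ a single cell with 599 Ptx3 UMIs weighed on the Ptx3 level. The output was concentrated in few cells, with 38.7% of all Il6 plus Ptx3 UMIs in the highest 10% of the cells and 115 cells at 100 UMIs or more. At the threshold of 5 UMIs there was no gap: 7, 38, 3 and 47 progenitors had 4 UMIs and 8, 32, 0 and 31 had 5.

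The median depth of the Il6/Ptx3 progenitors was 23865, 23724, 26608 and 24632 UMIs, above the 19750, 16488, 19207 and 17800 UMIs of the reference. Some Il6 UMIs were found outside stromal cells: 6.99, 19.2, 6.67 and 16.7% of the cells with at least 10 Ptprc UMIs had 1 or more, at median depths of 18260 to 34312 UMIs, and 2.34, 7.03, 2.55 and 6.93% after thinning. In the Il6/Ptx3 progenitors the share was 90.1, 90.1, 83.3 and 92.2%, and 71.8, 76.4, 70.8 and 79.2% after thinning. Il6 plus Ptx3 reached 5 UMIs in 2501 kept barcodes in all, and the Il6/Ptx3 progenitors were 46.4% of them. Of the remainder, 767 exceeded the Pi16 plus Dpp4 limit of the rule, which marks another progenitor state, and 346 the Ptprc limit.

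Compared with progenitors without Il6 and Ptx3, the Il6/Ptx3 progenitors had more transcripts of the hyaluronan synthase gene Has1, the chemokine gene Cxcl1, the NF-kB subunit gene Nfkb1 and the metallothionein gene Mt2, among others. Of 6076 genes that averaged 20 CPM or more, 31 (0.51%) were at least 2-fold higher in each of the 4 libraries and 13 (0.214%) at least 2-fold lower. Without the Adam28 cells the numbers were 28 (0.466%) and 10 (0.167%) of 6004. With reference cells drawn to the same depth as the Il6/Ptx3 progenitors they were 21 and 13, and without barcodes shared between libraries 27 and 4. As the rule used this contrast, nothing is read from these shares. The median log2 difference over all genes lay between -0.06 and 0.05 in the 4 libraries.

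Has1, which encodes a hyaluronan synthase, led the genes that were higher. It was at 739, 749, 742 and 730 CPM in the Il6/Ptx3 progenitors and at 113, 158, 74.4 and 168 CPM in the reference. The log2 differences were 2.70 (2.51 to 2.90), 2.25 (2.15 to 2.35), 3.32 (3.02 to 3.64) and 2.11 (2.02 to 2.21), and 2.32 and 2.96 in the Tom+ libraries without the Adam28 cells. The level hardly varied between the 4 sets of Il6/Ptx3 progenitors and no reference value came near it. A Has1 UMI was found in 80.3, 87.0, 83.3 and 88.2% of the Il6/Ptx3 progenitors, in 38.7 to 47.9% of reference cells and in 2.47 to 15.9% of cells with at least 10 Ptprc UMIs. After thinning these shares were 66.7 to 69.9%, 18.0 to 32.6% and 0.651 to 4.71%. Tnfaip6, whose product links hyaluronan to other matrix proteins, was at 722, 982, 926 and 1016 CPM against 191, 311, 149 and 337 CPM, with log2 differences of 1.92, 1.66, 2.63 and 1.59, and of 1.53 and 2.27 in the Tom+ libraries without the Adam28 cells. Ugdh, which makes the sugar precursor of hyaluronan, was higher by 1.43, 1.21, 2.01 and 1.48 on the log2 scale. Its difference in the library labelled CD45- Tom+ was 1.05 without the Adam28 cells and 0.95, under 2-fold, against the reference of matched depth. A second synthase gene, Has2, lay just under the filter, at 36.4, 26.2, 52.6 and 17.1 CPM against 10.1, 8.36, 2.08 and 6.95 CPM. Hyaluronan genes were not a list of their own, and those named here came from the ranking and from the NF-kB target list.

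**Figure D2:**
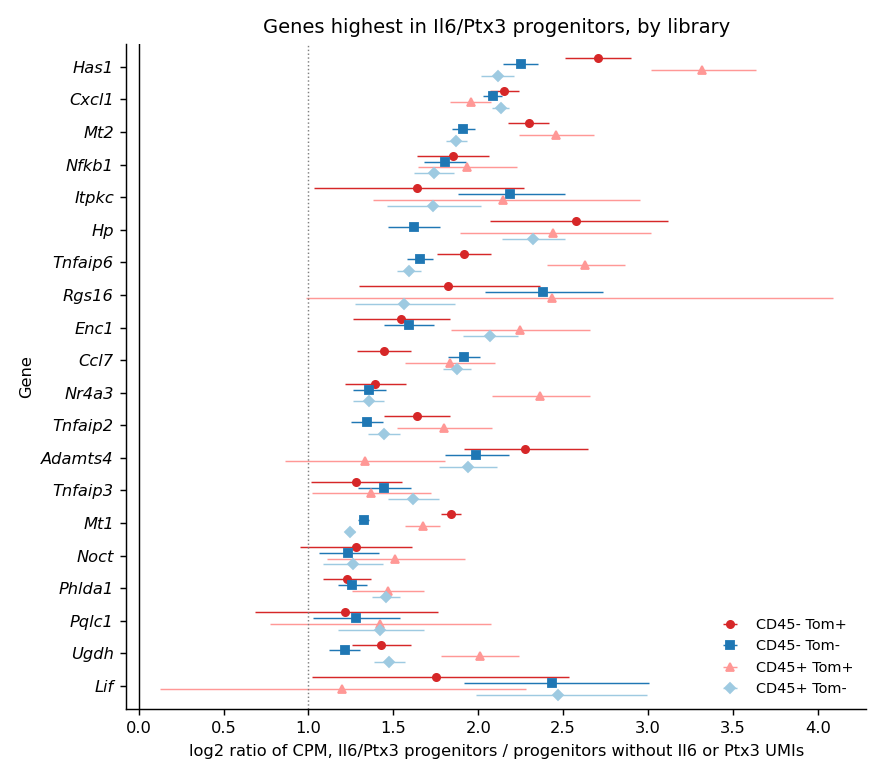
The 20 genes most higher in Il6/Ptx3 progenitors than in progenitors without Il6 and Ptx3 (rows) and their log2 ratio of CPM (x axis) in each of the 4 libraries, with exact 95% intervals of counting error; the dotted line marks a 2-fold ratio and all reference cells are included. The points of Has1 lay between 2.11 and 3.32 and those of Nfkb1 between 1.74 and 1.93, while the widest intervals were those of Rgs16 and then Lif in the library labelled CD45+ Tom+.

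Within the NF-kB family, the subunit gene Nfkb1 stood apart from the rest. Nfkb1 was at 391, 400, 412 and 407 CPM in the Il6/Ptx3 progenitors against 109, 114, 108 and 122 CPM, with log2 differences of 1.85 (1.64 to 2.06), 1.80 (1.68 to 1.93), 1.93 (1.65 to 2.23) and 1.74 (1.62 to 1.86). Without the Adam28 cells the reference was at 133 and 135 CPM in the Tom+ libraries and the differences there were 1.56 and 1.61. The 4 levels lay close together and well above every reference level. The transactivating subunit gene Rela was at 75.7, 80.4, 97.7 and 74.2 CPM with log2 differences of 0.42, 0.25, 0.54 and 0.37, and Nfkb2 and Relb differed by 0.17 to 1.04. Among the inhibitors that NF-kB itself induces, Tnfaip3 (A20) was higher by 1.28, 1.45, 1.37 and 1.62, and by 0.92 and 1.04 in the Tom+ libraries without the Adam28 cells. Nfkbia (IkB-alpha) was higher by 0.78, 0.68, 0.90 and 0.81, and Nfkbiz by 1.33, 0.69, 1.05 and 0.95. Of the 15 genes of subunits and feedback inhibitors that passed the filter, 2 were at least 2-fold higher in every library, where 0.51% of all genes were. Without the Adam28 cells 1 was, against 0.466% of all genes. By any amount, 13 were higher in every library, where 13.9% of all genes were. Without the Adam28 cells 10 of the 15 were, against 11.1% of all genes. Cyld was the single one lower in all 4. The median log2 difference of the 15 was 0.78, and 0.60 without the Adam28 cells, against -0.04 and -0.05 over all genes.

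Other genes that NF-kB is known to induce gave a mixed picture. Tnfaip2 was higher by 1.64, 1.34, 1.80 and 1.44, and by 1.29 and 1.47 in the Tom+ libraries without the Adam28 cells, whereas the adhesion molecule genes Icam1 and Vcam1 differed by 0.40 to 0.93 and 0.12 to 0.86. The mitochondrial superoxide dismutase gene Sod2 differed by 0.50 to 1.01. Plau, Tnc and Ier3 did not keep 1 direction over the libraries. Of the 11 such genes that passed the filter 3 were at least 2-fold higher in every library, where 0.51% of all genes were. The list median was 0.53, and 0.47 without the Adam28 cells.

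Of the 3 neutrophil chemokine genes that passed the filter, Cxcl1 alone was higher in all 4 libraries. Cxcl1 was at 2839, 2460, 2416 and 2567 CPM against 638, 580, 623 and 586 CPM, with log2 differences of 2.15 (2.07 to 2.24), 2.09 (2.03 to 2.14), 1.95 (1.84 to 2.07) and 2.13 (2.08 to 2.18). In the Tom+ libraries these were 1.77 and 1.60 without the Adam28 cells. The per-cell median was 2309, 1771, 1677 and 2035 CPM against 93.7 to 175 CPM, so the difference was not that of a few cells. A Cxcl1 UMI was found in 95.8 to 100% of the Il6/Ptx3 progenitors, in 65.3 to 78.3% of the reference cells and in 50.4 to 57.3% of cells with at least 10 Ptprc UMIs. The related Cxcl2 was higher by 0.90, 1.34 and 1.50 in 3 libraries and lower by 0.54 in the one labelled CD45+ Tom+. Cxcl5 was higher in 1 library and lower in 3.

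Among the monocyte and eosinophil chemokines, Ccl7 was at 568, 735, 470 and 833 CPM against 209, 195, 132 and 227 CPM, with log2 differences of 1.44, 1.92, 1.83 and 1.87. In the library labelled CD45- Tom+ its difference was 1.07 without the Adam28 cells and 0.91, under 2-fold, against the reference of matched depth. Its neighbour Ccl2 was at 996, 951, 772 and 1081 CPM against 431, 279, 412 and 259 CPM, with differences of 1.21, 1.77, 0.91 and 2.06, and of 0.83 and 0.55 in the Tom+ libraries without the Adam28 cells. Ccl2 was more unevenly distributed over the cells than Cxcl1, since its per-cell median was only 60.5, 75.4, 31.6 and 87.7 CPM. The eosinophil chemokine Ccl11 was higher by 1.91, 0.87, 0.80 and 0.89, and Cxcl12, which retains lymphocytes and myeloid cells, by 1.78, 0.78, 1.47 and 0.65. For both genes the reference included the Adam28 cells. Of the 5 genes of the monocyte and eosinophil group that passed the filter, 1, Ccl7, was at least 2-fold higher in every library, where 0.51% of all genes were. Against the reference of matched depth none of the 5 was. The list median was 0.88 with or without the Adam28 cells.

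Of the IL-6 family, the cytokine gene Lif was higher beside Il6, whereas the receptor and signalling genes differed by less. Lif, an IL-6 family cytokine, was at 32.4, 33.7, 25.5 and 36.5 CPM against 9.63, 6.22, 11.1 and 6.60 CPM, with log2 differences of 1.75 (1.02 to 2.53), 2.44 (1.92 to 3.00), 1.20 (0.13 to 2.28) and 2.47 (1.99 to 2.99). It was the only other member of the 8 genes of the cytokine family to pass the filter, and was under 2-fold, at 0.84, in the library labelled CD45+ Tom+ without the Adam28 cells. The receptor genes Il6ra and Il6st (gp130) differed by -0.38 to 0.76 and -0.15 to 0.61. Stat3, which carries the signal, differed by 0.75, 0.35, 0.32 and 0.37. Its feedback inhibitor Socs1 was higher by 2.29, 0.87, 1.90 and 1.08, and Socs3 by 0.96, 0.19, 1.13 and 0.16, with the larger differences in the Tom+ libraries. Of the 11 receptor and signalling genes that passed the filter 8 were higher by any amount in all 4 libraries, with or without the Adam28 cells. Of all genes 13.9% were, and 11.1% without those cells. None of the 11 was lower in all 4, and none was at least 2-fold higher in every library. Their median was 0.39, and 0.30 without the Adam28 cells.

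The inflammatory programme was not uniform across acute-phase, complement and prostaglandin genes. Hp, the haemoglobin scavenger haptoglobin, was at 102, 240, 147 and 235 CPM against 17.1, 77.9, 27.1 and 46.9 CPM, with log2 differences of 2.58, 1.62, 2.44 and 2.32, and of 2.26 and 2.23 in the Tom+ libraries without the Adam28 cells. Saa3, a serum amyloid gene, was lower by 0.48, 0.17, 2.29 and 0.07. Lcn2 was higher or lower according to whether the 22 Adam28 cells stayed in the reference. Complement C3 was at 5968 to 8434 CPM and differed by 1.14, 0.43, 0.77 and 0.53 (0.75 and 0.41 in the Tom+ libraries without the Adam28 cells), and Cfb by 1.13, 0.82, 1.46 and 1.07. Ptgs2, which encodes the inducible enzyme of prostaglandin synthesis (COX-2), was at 539, 682, 555 and 755 CPM against 241, 200, 212 and 181 CPM, with differences of 1.16, 1.77, 1.39 and 2.06. Its differences in the Tom+ libraries were 0.77 and 1.03 without the Adam28 cells, so that it was no longer 2-fold higher in every library. The list of 8 prostaglandin genes that passed the filter went from 1 such gene to 0, where 0.51 and 0.466% of all genes were such. Downstream of Ptgs2 the prostacyclin synthase gene Ptgis was lower by 1.88, 0.89, 1.49 and 0.76 and Hpgd, whose product breaks prostaglandins down, by 1.01, 1.32, 0.28 and 1.18. Ptges, for prostaglandin E synthesis, differed by -0.05 to 0.37.

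Metallothioneins, which bind zinc and copper, were a further pair of genes that were higher in all 4 libraries. Mt2 was at 1561, 1429, 899 and 1537 CPM against 318, 380, 163 and 420 CPM, with log2 differences of 2.30, 1.91, 2.46 and 1.87, and Mt1 was higher by 1.84, 1.33, 1.67 and 1.24. The Tom+ differences without the Adam28 cells were 2.11 and 2.25 for Mt2 and 1.62 and 1.50 for Mt1. The remaining genes with differences of 2-fold or more in every library included Adamts4, an aggrecanase (2.27, 1.99, 1.33 and 1.94), Nr4a3, a nuclear receptor (1.39, 1.36, 2.36 and 1.35), and Sphk1 and S1pr3, a kinase and a receptor of sphingosine-1-phosphate signalling (1.18 to 2.01 and 1.18 to 2.60). Adamts4 was under 2-fold in CD45+ Tom+, at 0.97 without the Adam28 cells and at 0.40 against the reference of matched depth, and Sphk1 was at 0.92 there against the latter.

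No gene of the adipogenesis lists, the collagen and matrix protein list or the senescence list was at least 2-fold higher in every library. Of the 28 dissociation stress genes 1 was, where 0.51% of all genes were. The 27 collagen and matrix genes that passed the filter had a median log2 difference of 0.29, and of 0.09 without the Adam28 cells. By any amount, 16 of the 27 were higher in all 4 libraries, where 13.9% of all genes were. Without the Adam28 cells 11 were, against 11.1% of all genes. The preadipocyte markers had medians of -0.08 and 0.03 in the Tom- libraries and of 0.88 and 0.47 in the Tom+ libraries without the Adam28 cells. Cebpb, an early adipogenic and inflammatory transcription factor gene, was higher by 0.83 to 1.01, while Pparg, the master regulator of adipocytes, differed by 1.16, -0.20, 0.65 and -0.19. The immediate-early genes Fos and Jun, which tissue dissociation induces, were lower by 0.30 and 0.49 and by 0.35 and 0.61 in the Tom- libraries. In the Tom+ libraries they were higher by 0.08 to 0.31 against the whole reference and lower by 0.01 to 0.18 without the Adam28 cells. The 28 genes of that list had a median of 0.14, and of 0.05 without the Adam28 cells. By any amount 12 were higher and 2 lower in all 4 libraries, where 13.9 and 18.7% of all genes were. Without the Adam28 cells 12 were higher and 5 lower, against 11.1 and 20% of all genes. The senescence and cell cycle inhibitor genes had a median of -0.08 over 15 genes, with or without the Adam28 cells. Of the 15, 6 were higher and 4 lower in all 4 libraries, where 13.9 and 18.7% of all genes were. Without the Adam28 cells 6 were higher and 5 lower. Cdkn2a, which encodes p16, was at 15.4, 7.68, 6.01 and 4.71 CPM against 13.6, 4.86, 8.34 and 3.74 CPM, too low for the filter. A Cdkn2a UMI was found in 6.16 to 16.7% of the Il6/Ptx3 progenitors, in 4.14 to 11.3% of the reference and in 4.34 to 11.1% of cells with at least 10 Ptprc UMIs. Cdkn1a (p21) was higher by 0.46, 0.22, 0.87 and 0.74. Nuclear genes of oxidative phosphorylation had a median of -0.14, and of -0.09 without the Adam28 cells, against -0.04 and -0.05 over all genes. In the Tom- libraries their medians of -0.04 and -0.02 were not below the -0.06 and -0.05 of all genes. By any amount, 13 of 31 were lower in every library, where 18.7% of all genes were. Without the Adam28 cells 11 were, where 20% of all genes were.

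**Figure D3:**
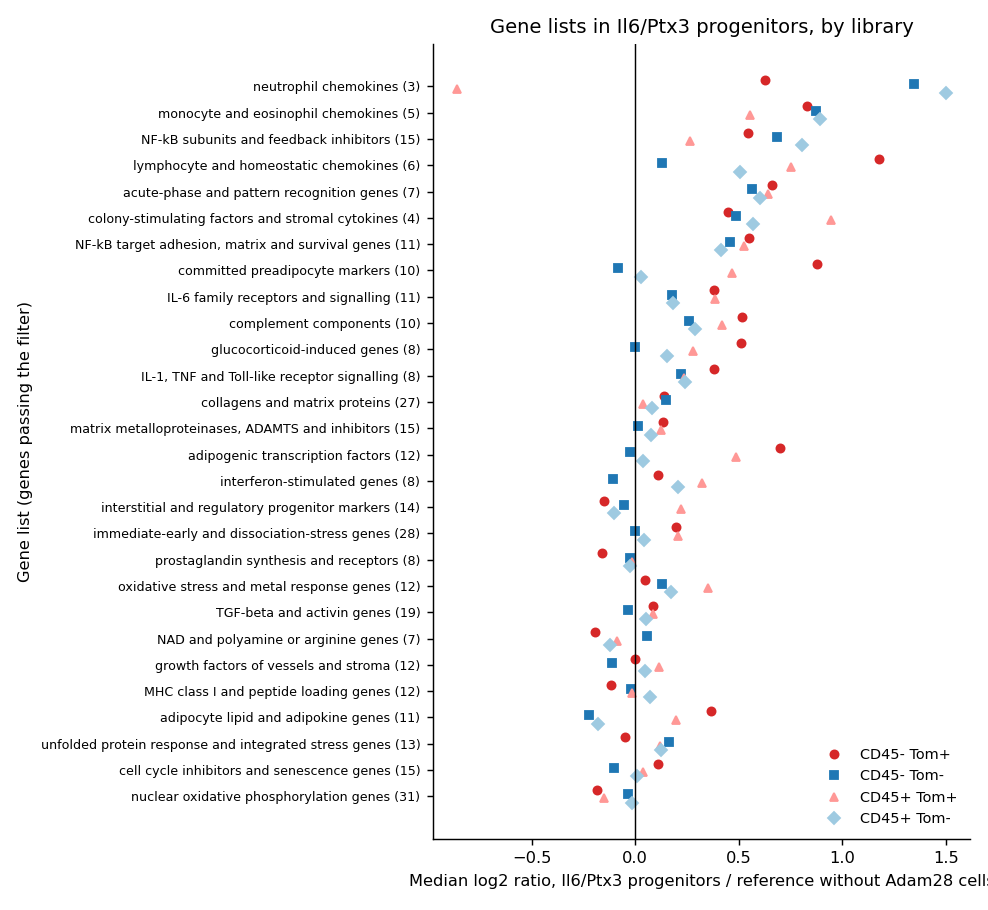
Median log2 ratio of CPM between Il6/Ptx3 progenitors and the reference without Adam28 cells (x axis) for each gene list (rows, with the number of genes that passed the filter), 1 point a library. The 15 NF-kB subunit and inhibitor genes lay right of 0 in all 4 libraries, at 0.55, 0.68, 0.26 and 0.81. The 31 oxidative phosphorylation genes lay left of it, at -0.18, -0.04, -0.15 and -0.02. The medians over all genes, not drawn, were -0.01, -0.06, -0.04 and -0.05.

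Ranked by the smallest difference over the libraries, the genes lower in the Il6/Ptx3 progenitors began with Adam28, followed by Myrf and Clu. The Adam28 differences in the Tom- libraries, -2.29 (-8.18 to 1.97) and -2.32 (-8.20 to 1.94), rested on 1 UMI against 2 UMIs in each. Once the Adam28 cells were left out Dmkn, lower by 2.01 or more in every library, came first and Myrf and Clu again followed. Clu, which encodes the chaperone clusterin, was at 39.8, 56.2, 37.6 and 41.4 CPM against 858, 216, 672 and 156 CPM, and its log2 differences were -4.43, -1.94, -4.16 and -1.91. Gatm, for creatine synthesis, was lower by 3.27, 1.68, 2.81 and 2.77 and the transcription factor gene Myrf by 2.85, 1.92, 3.14 and 2.10. The junction genes Cxadr and F11r were lower by 1.91 to 2.65 and 1.18 to 1.84. Each of these 5 genes stayed at least 2-fold lower in every library without the Adam28 cells, while F11r was lower by 0.58 in the library labelled CD45+ Tom+ against the reference of matched depth. Cd74, the chaperone of MHC class II, was at 117, 60.9, 63.1 and 44.2 CPM against 332, 133, 275 and 114 CPM, and was lower by 0.85, under 2-fold, in the library labelled CD45- Tom- against the reference of matched depth. The class II genes H2-Aa, H2-Ab1 and H2-Eb1 were lower in all 4 libraries but under 2-fold in at least 1, with smallest differences of 0.98, 0.81 and 0.85. Beside these, 10 macrophage markers summed to 340, 235, 207 and 209 CPM against 388, 273, 300.5 and 329 CPM in the reference without the Adam28 cells, and the 4 mesothelial markers that the rule did not use to 191, 197, 210 and 204 CPM against 387, 208, 332 and 162 CPM. Their part in the result was not tested.

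Over the pooled libraries the leading inflammatory genes followed the Il6 plus Ptx3 count below the threshold of 5 UMIs as well as above it. In cells with 0, 1, 2, 3 to 4, 5 to 9, 10 to 19, 20 to 49 and 50 or more UMIs of both, Cxcl1 was at 632, 752, 912, 1075, 1374, 1909, 2392 and 3973 CPM. Nfkb1 was at 122, 145, 160, 163, 203, 246, 355 and 710 CPM and Has1 at 156, 207, 295, 325, 423, 459, 747 and 1171 CPM. All 3 were higher in each pooled bin than in the one before, and their levels in the last bin were more than 2 times those in the 5 to 9 bin. Single libraries did not keep that order. In the library labelled CD45+ Tom-, Cxcl1 was at 912, 778 and 1366 CPM in the bins of 2, 3 to 4 and 5 to 9 UMIs, Has1 at 334, 288 and 417 CPM and Nfkb1 at 125, 107 and 211 CPM, with a step at the threshold. In the library labelled CD45- Tom- the same bins held Cxcl1 at 890, 1325 and 1372 CPM, Has1 at 266, 383 and 457 CPM and Nfkb1 at 203, 231 and 202 CPM. Ccl2 stayed between 246 and 389 CPM up to the 5 to 9 bin and was then at 693, 815 and 1892 CPM. Jun ran the other way, from 5600 to 3254 CPM, and Fos from 5883 to 4199 CPM, while Dcn (12884 to 14516 CPM), Pdgfra (451 to 526 CPM) and Col1a1 (4970 to 5964 CPM) stayed within a narrow range. Cdkn2a kept no order, between 3.83 and 8.31 CPM. Median depth moved with the bins, from 17227 to 26924 UMIs, and its part in these levels was not tested. The bins left out cells with at least 3 Adam28 UMIs.

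**Figure D4:**
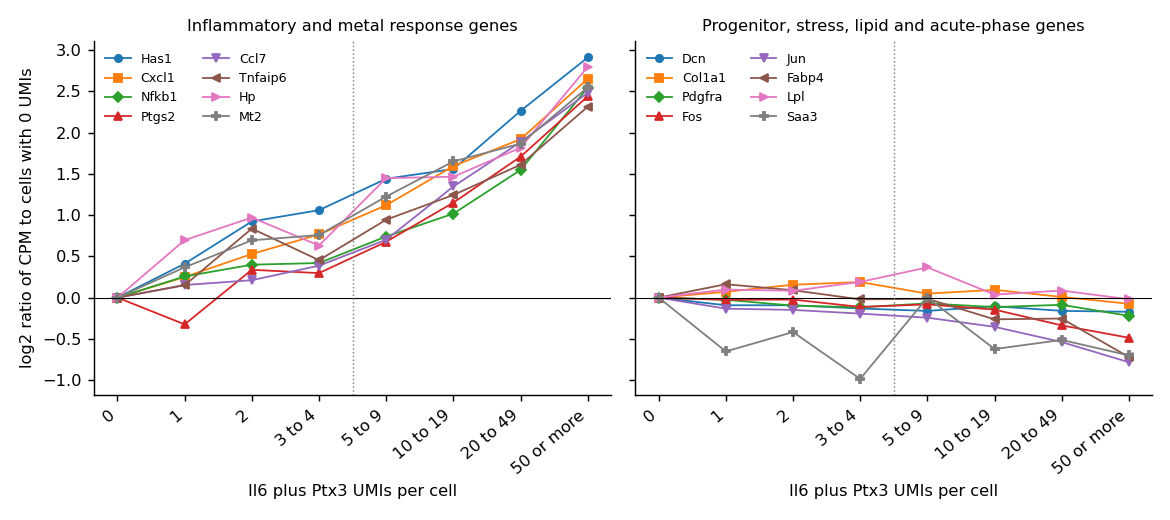
Log2 ratio of CPM to the progenitors without Il6 and Ptx3 (y axis) for chosen genes, in progenitors grouped by their Il6 plus Ptx3 UMIs (x axis), all libraries pooled and the Adam28 cells left out of the first group; the dotted line marks the threshold of 5 UMIs. On the left Cxcl1 went from 632 to 3973 CPM and Has1 from 156 to 1171 CPM, while on the right Dcn stayed between 12884 and 14516 CPM.

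Cells with Il6 but no Ptx3 were set against those with Ptx3 but no Il6 in the Tom- libraries, where each had at least 43 cells. Of 2966 genes that averaged 50 CPM or more, 7 (0.236%) were at least 2-fold higher in the Il6 cells in both libraries and 0 (0%) lower. The 7 were Adamts4, Bhlhe40, Mgp, Saa3, Timp3, Csrp2 and Clu. Saa3 was at 931 and 406 CPM in the cells with Il6 alone, 150 and 82.6 CPM in those with Ptx3 alone, and 837 and 438 CPM where both were present with at least 5 UMIs each. Mgp, a matrix inhibitor of calcification, was at 6950 and 5337 CPM against 3057 and 1315 CPM. Nfkb1, Ptgs2 and Has1 were highest where both transcripts were plentiful: Nfkb1 was at 569 and 562 CPM there, 280 and 313 CPM with Il6 alone and 218 and 266 CPM with Ptx3 alone. Ptgs2 was at 1038 and 1060 CPM, 623 and 603 CPM, and 193 and 303 CPM. Has1 followed with 1021 and 1010 CPM, 602 and 716 CPM, and 416 and 193 CPM. By its definition, the group with at least 5 UMIs of each started at a higher Il6 plus Ptx3 count than the other groups. Its median depth was 25276 and 26809 UMIs, against 22476 and 20468 UMIs with Il6 alone and 21323 and 23536 UMIs with Ptx3 alone. The part of total count and depth in these levels was not tested.

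The Tom+ and Tom- Il6/Ptx3 progenitors were then compared within each pair of CD45 labels. The leading inflammatory genes differed little. Has1 differed by -0.02 (-0.10 to 0.06) and 0.03 (-0.11 to 0.16) on the log2 scale, Nfkb1 by -0.03 (-0.15 to 0.08) and 0.02 (-0.16 to 0.19), and Cxcl1 by 0.21 (0.16 to 0.25) and -0.09 (-0.16 to -0.02). Il6 itself differed by -0.13 and -0.31 and Ptx3 by 0.56 and -0.67. Ptgs2 was lower in the Tom+ cells by 0.34 and 0.45, Ccl7 by 0.37 and 0.82, and Hp by 1.24 and 0.67. The median over the 7 NF-kB subunit and inhibitor genes that passed the filter of 50 CPM was -0.09 and 0.02, against -0.01 and -0.01 over all genes. Cdkn2a was at 15.4 and 6.01 CPM in the Tom+ cells and 7.68 and 4.71 CPM in the Tom- cells, and 1 cell held most of its 27 UMIs in the library labelled CD45- Tom+. The whole Tom+ side rests on 95 cells, 24 of them in the library labelled CD45+ Tom+.

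Of 2934 genes, 9 (0.307%) were at least 2-fold higher in the Tom+ cells in both pairs and 2 (0.0682%) at least 2-fold lower. Without shared barcodes the numbers were 6 and 2. In the reference without the Adam28 cells 26 (0.862%) and 5 (0.166%) of 3016 were. Among the 9, Ighm, Igkc, Iglv1, Igkv14-126 and Jchain are immunoglobulin genes or their partner, and they were higher in the Tom+ reference cells too. B cell markers, of which Ighm made up nearly all, summed to 13628, 519, 4420 and 483 CPM in the Il6/Ptx3 progenitors. In that reference they summed to 9007, 772, 5909 and 616 CPM. Igkc was found in 71 of 71, 513 of 514, 24 of 24 and 552 of 552 Il6/Ptx3 progenitors, so its level differed and not its presence. The part of these transcripts in the difference was not tested. Of the other 4, Ccl21a came to 98.6% from 1 cell of the library labelled CD45- Tom+, Timp3 to 68.7% from 1 cell of the library labelled CD45+ Tom+, and Slpi to 47.1% from 1 cell. Id1, an inhibitor of differentiation factors, was at 150, 74.3, 158 and 56.4 CPM, with differences of 1.02 (0.81 to 1.21) and 1.49 (1.18 to 1.78). A single cell held 14.4% of the Id1 UMIs in the library labelled CD45- Tom+ and 31.4% in the one labelled CD45+ Tom+. In the reference without the Adam28 cells Id1 differed by 0.79 (0.59 to 0.99) and 0.18 (-0.12 to 0.47).

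The 2 genes that were lower in the Tom+ cells were Cxcl10, the interferon-induced chemokine for T cells, and Cilp, a matrix protein gene. Cxcl10 was at 23.3, 113, 10.5 and 101 CPM, with log2 differences of -2.27 (-2.76 to -1.82) and -3.26 (-4.58 to -2.21). In the reference without the Adam28 cells the order was the other way, at 108, 54.4, 103 and 29.2 CPM. The Tom+ values rest on 41 and 7 UMIs. The share of cells with a Cxcl10 UMI did not follow the level: it was 25.4% (15.8 to 37.1), 18.1% (14.9 to 21.7), 12.5% (2.66 to 32.4) and 17.6% (14.5 to 21.0). The level rested on few cells with many transcripts, as the 10 highest cells held 71.4 and 68.1% of the Tom- UMIs. Cells with 10 or more Cxcl10 UMIs were 24 of 514 (4.67%) and 28 of 552 (5.07%) on the Tom- side, against 0 of 71, with an exact upper limit of 5.06%, and 0 of 24, with one of 14.2%. The limit for 71 cells lay between both Tom- shares and that for 24 cells above them. In the whole reference the 10 highest cells held 90, 78.2, 89.8 and 78.7% of the Cxcl10 UMIs. Reference cells with 10 or more were 6 of 98 (2.28 to 12.9%) and 10 of 290 (1.67 to 6.25%). In the pair labelled CD45+ they were 3 of 62 (1.01 to 13.5%) and 5 of 299 (0.545 to 3.86%). The intervals overlapped within each pair. With cells of 3 Il6 plus Ptx3 UMIs or more included, the mean of both Tom differences of the Il6/Ptx3 progenitors was -0.82 in place of -2.77, and without shared barcodes it was -2.39. Cilp was at 82.0, 169, 81.2 and 205 CPM, with differences of -1.04 (-1.30 to -0.80) and -1.34 (-1.76 to -0.95), and was found in 39.4, 52.7, 58.3 and 54.9% of the cells. In the same reference Cilp differed by -1.27 and -0.21.

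**Figure D5:**
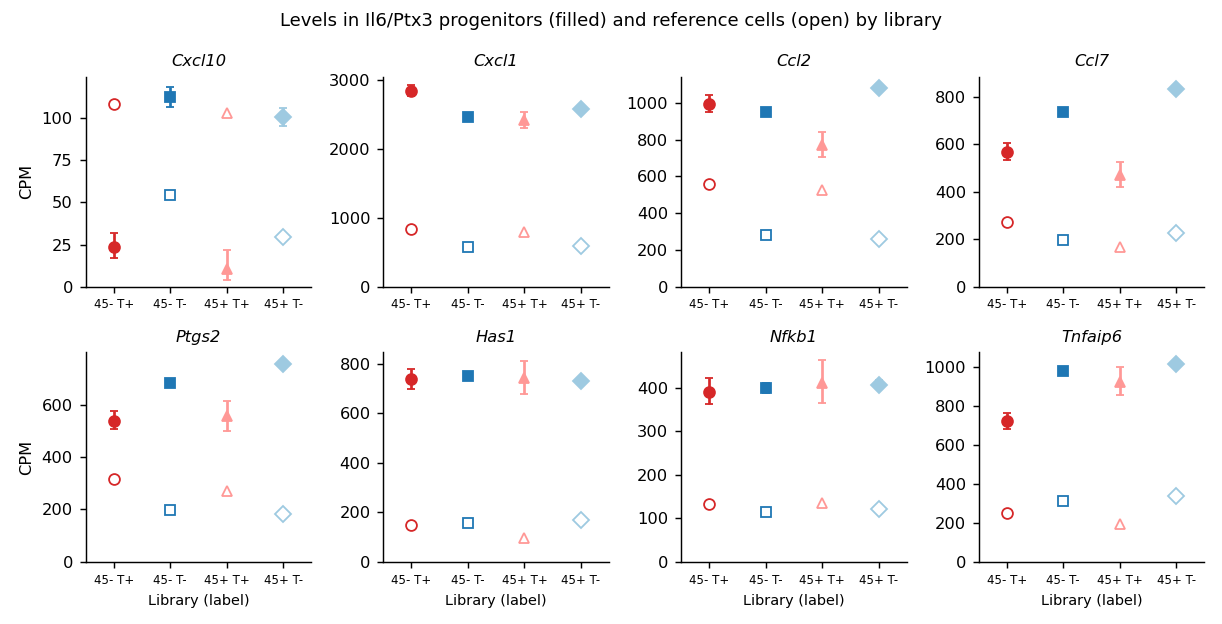
Level of 8 genes (CPM, y axis from 0) in the Il6/Ptx3 progenitors (filled, with exact 95% Poisson intervals of counting error) and in the reference without Adam28 cells (open) of the 4 libraries (x axis; 45 stands for CD45, T for Tom). Has1 and Nfkb1 were nearly level over the filled points, while Cxcl10 was at 23.3 and 10.5 CPM in the Tom+ cells and at 113 and 101 CPM in the Tom- cells.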

How the data were processed

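Gonadal fat SVF cells were sorted into 4 libraries and sequenced on a droplet platform with a 3-prime kit. The authors deposited raw UMI counts per gene and barcode for each library, made with Cell Ranger 3.0.2 on the mm10 build per the submitters' processing notes. The files listed 31054 features, tdTomato among them, of which 31011 matched the GENCODE vM21 annotation that gave the positions, and 33567 barcodes.

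The counts were used as deposited. Barcodes were filtered and cells chosen by the rule that opens the report. Doublets were not removed in the values reported. As an alternative, cells with the highest Scrublet scores (scanpy 1.11.5, 0.8% of a library per 1000 barcodes) were left out. Counts of the cells of a library were summed and divided by their total over all genes (CPM). Ratios are log2 of 2 CPM values. Intervals were exact: Clopper-Pearson for shares, Poisson for levels and conditional binomial for ratios (95%, scipy 1.17.1). A gene was counted as higher or lower when it passed 2-fold in all 4 libraries (20 CPM or more) or in both pairs of libraries (50 CPM or more). The text names members of fixed gene lists, the 20 genes highest and lowest by the smallest difference over the libraries and, for Tom, the 10 highest and lowest, without the genes of the rule, mitochondrial, ribosomal, Gm, Rik and immunoglobulin genes, and tdTomato. Immunoglobulin genes, Sphk1, S1pr3, Bhlhe40, Mgp, Dmkn and the genes of the Adam28 cells were named after their values were seen. No p-value was computed, as each group held 1 library.

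The cells, lists and the contrast were chosen with earlier results of these data known. The subsets with Il6 or Ptx3 alone, the bins of 20 to 49 and 50 or more UMIs, the spread of Cxcl10 and Cilp over cells, and the removal of the Adam28 cells were chosen after seeing the data. Alternatives covered the UMI threshold, thinning to 5000 UMIs, a rate per 10000 UMIs, the barcode and expression filters, doublets, shared barcodes, equal weight per cell, a reference matched on depth and TMM factors (edgeR 4.0.16); of these, thinning, the rate and the wider barcode filter for the gene contrasts, and leaving out 1 library, were added after seeing the data. The procedure was tested on simulated counts. Promoter windows came from RefSeq (GRCm38.p6, 250 bases before to 50 after the start) and were cut at the start, or at the end of a match spanning it, for printing.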

Additional observations from a re-analysis of the deposited data

Results flagged for a closer look

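Cxcl10 ran in opposite directions between the Tom labels when the Il6/Ptx3 progenitors were set against the reference: its log2 difference was -1.83 in the library labelled CD45- Tom+ and -2.96 in CD45+ Tom+, but 1.05 in CD45- Tom- and 1.78 in CD45+ Tom-. Lcn2, an iron-binding acute-phase gene, did the same, at -5.72 and -4.93 in the Tom+ libraries and 0.57 and 2.11 in the Tom- libraries, and without the Adam28 cells it was at 0.52 and 2.58 in the Tom+ libraries. The Cxcl10 levels rested on few cells, as 10 reference cells held 90 and 89.8% of the reference UMIs in the Tom+ libraries. With 1 library a group none of these differences was tested.

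Between Tom+ and Tom- Il6/Ptx3 progenitors, 4 list genes ran in opposite directions in the pairs labelled CD45- and CD45+, with intervals on either side of 0. The matrix metalloproteinase gene Mmp3 differed by -1.39 and 1.31, the growth factor gene Tgfb2 by -1.38 and 1.37, the elastin gene Eln by -0.98 and 0.61 and the lipid droplet gene Plin2 by 0.57 and -0.66. The difference between the pairs was not tested, and the pair labelled CD45+ rests on 24 Tom+ cells.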

How the results depend on the processing

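No paired analysis was possible because each group had 1 library. At a threshold of 3 UMIs the share of Il6/Ptx3 progenitors among progenitors was 40.7% (CD45- Tom+), 53.2% (CD45- Tom-) and 55.1% (CD45+ Tom-), and at 10 UMIs 25.2, 33.7 and 36.6%. Thinned to 5000 UMIs it was 22.4, 22.7, 12.5 and 24.1% in the 4 libraries. Without shared barcodes it was 34.8% in CD45- Tom- and 40.8% in CD45+ Tom-. Genes at least 2-fold lower than in the reference, 13 as reported, numbered 8 with every cell weighing the same, 44 at 5 CPM, 35 with no filter, 4 without shared barcodes and 34 after thinning. Leaving out 1 library, which makes the rule laxer, gave 32 to 46 higher and 11 to 24 lower. Genes higher in Tom+ cells, 9 as reported, numbered 16 at 20 CPM and 18 after thinning; those lower, 2 as reported, numbered 7 at 20 CPM and 1 each without Scrublet-marked cells, by rate and at thresholds of 3 and 10 UMIs. The mean Tom difference of 3 genes reversed after thinning, to -0.53 for Timp3, -2.92 for Cxcl9 and -1.29 for Aspn. That of Cxcl10 was -0.82 at a threshold of 3 UMIs, against -3.03 to -1.73 under its other alternatives. The causes were not tested. Against the reference the median difference of the 40 genes ranked highest or lowest kept its sign under the alternatives run, which did not cover list genes outside the ranking; of those, Lcn2, Fos and Jun changed sign in the Tom+ libraries without the Adam28 cells. The Tom+ values rest on 24 and 71 cells, which limits their precision.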
